A study of Homo sapiens with 2 samples.

Results

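The clustered protocadherin genes were examined for binding of RUNX2 and MTA1 in MDA-MB-231 cells. Members were taken by symbol and position alone, as the protein-coding genes of chromosome 5 whose symbols begin with PCDHA, PCDHB or PCDHG. This gave 53 of 20037 protein-coding genes, with 15 in the alpha, 16 in the beta and 22 in the gamma subcluster. The alpha genes comprised 13 numbered genes and the C-type genes PCDHAC1 and PCDHAC2, and the gamma genes comprised 12 A, 7 B and 3 C genes. MDA-MB-231 cells are a widely used triple-negative breast cancer line, and they were not treated. RUNX2 is a DNA-binding transcription factor, and MTA1 is a subunit of the NuRD complex, which remodels nucleosomes and removes histone acetyl groups. The labels and methods name CUT&Tag, in which an antibody directs a transposase to chromatin, though the labels also describe ligation of adaptors to precipitated DNA, and there was 1 library with an antibody against RUNX2 and 1 with an antibody against MTA1. No value therefore has a replicate, no p-value was computed, and the 95% intervals cover counting error only.

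Clustered protocadherins are cell-surface adhesion proteins that are best known from neurons, where each cell displays its own combination and cells recognise their own branches by it. Alpha and gamma genes each carry a variable first exon with its own promoter, which is spliced to constant exons shared by the whole subcluster. Beta genes lack such constant exons. Most promoters of the clusters hold a conserved sequence element around the letters CGCT, which is known as a binding site of the insulator protein CTCF, and the choice of promoter depends on CTCF and cohesin. Silent promoters of the clusters are known to carry DNA methylation.

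The element is shown first because it marks where the promoters lie and how alike they are. RefSeq promoter sequences (GRCh38.p14, 250 bases before the start and 50 from it on) were matched by gene ID for 47 of the 53 genes. Of these 46 held CGCT on one strand or the other, against 81.0% of 15843 protein-coding promoters. On the strand of the gene, CGCT began between 100 and 30 bases before the start in 43 of 47 members and in 27.0% of all promoters. The match is a description of the letters and was not read as an occupied site. Windows of 26 bases are given below for the member of each subcluster with the highest mean identity to the others (the last in chromosome order where members tied) and for the 6 members with a peak near their start, with CGCT in capitals. Where a promoter held several such windows, the one most like those of its own subcluster was taken, which raises the identity within subclusters.

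PCDHA1: gccacatgatgtCGCTgtacaccaca
PCDHAC1: agaaggtgtggtCGCTcacgttcacc
PCDHAC2: gcagtccgggttCGCTgtccgccact
PCDHB15: aacgcatggtggCGCTgcaggctaag
PCDHB3: aacgcatggtggCGCTgttgactaag
PCDHGB5: gactctgggcgcCGCTgttggccaaa
PCDHGB1: acctctgggcgcCGCTgtcgaccaaa
PCDHGB7: gtgcagagcaagCGCTgacgccgggg
PCDHGC3: gactctgtgtgcCGCTgtcggccaat

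The windows were alike within subclusters. Their median pairwise identity was 69.2% among alpha, 80.8% among beta and 73.1% among gamma genes, against 53.8% for each pairing of different subclusters. The C-type alpha genes had the lowest mean identities to the other alpha genes, 44.4% for PCDHAC1 and 50.3% for PCDHAC2. Those of the numbered alpha genes with a window ran from 58.0% for PCDHA11 to 75.9% for PCDHA1. Among gamma windows the lowest mean identity was that of PCDHGB7, with 37.7%, and PCDHGC3 reached 72.9%. The PCDHGB7 value holds only for the window with CGCT. Its promoter, printed below, also has a stretch like the PCDHGB6 window but with CGCC in place of CGCT. That stretch was not scored, so the value does not show that the element of PCDHGB7 is unlike the others. The core lay 38 bases before the start of PCDHA1, 64 before that of PCDHB3, 58 before that of PCDHGB1 and 70 before that of PCDHGC3.

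Peaks at the starts of these genes were few. Of the 53 members, 4 had a RUNX2 peak within 1 kb of the start, or 7.55% (exact 95% interval 2.09% to 18.2%), against 48.9% of 15849 protein-coding genes with a known start side. An MTA1 peak was present at 2 members, or 3.77% (0.46% to 13.0%), against 50.9% of all genes. Peaks of both libraries were present at 0 of 53, which allows a share of up to 5.66%, whereas 44.0% of all genes had both. A peak of either library was found at 6 members, or 11.3% (4.27% to 23.0%), against 55.8%. The remaining 47 members had no listed peak there, which can be an absent signal or one below the threshold of the list. How uniquely reads align among these similar genes was not examined. Each upper bound of the members lay below the share of all genes. These intervals take the members as independent, although they are neighbours with similar promoters, so they may be too narrow.

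The counts were low in each subcluster. RUNX2 peaks lay at 2 of 15 alpha, 1 of 16 beta and 1 of 22 gamma genes. MTA1 peaks lay at 0 of 15 alpha genes, which allows up to 20.0%, at 0 of 16 beta genes, which allows up to 18.8%, and at 2 of 22 gamma genes, or 9.09% (1.12% to 29.2%). The intervals overlapped between the subclusters in both libraries. Both alpha genes with a peak within 1 kb were of the C-type. The pattern depended on the window: 0 alpha genes had a RUNX2 peak within 0.5 kb, and 3 within 3 kb, among them the numbered PCDHA12.

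**Figure D1:**
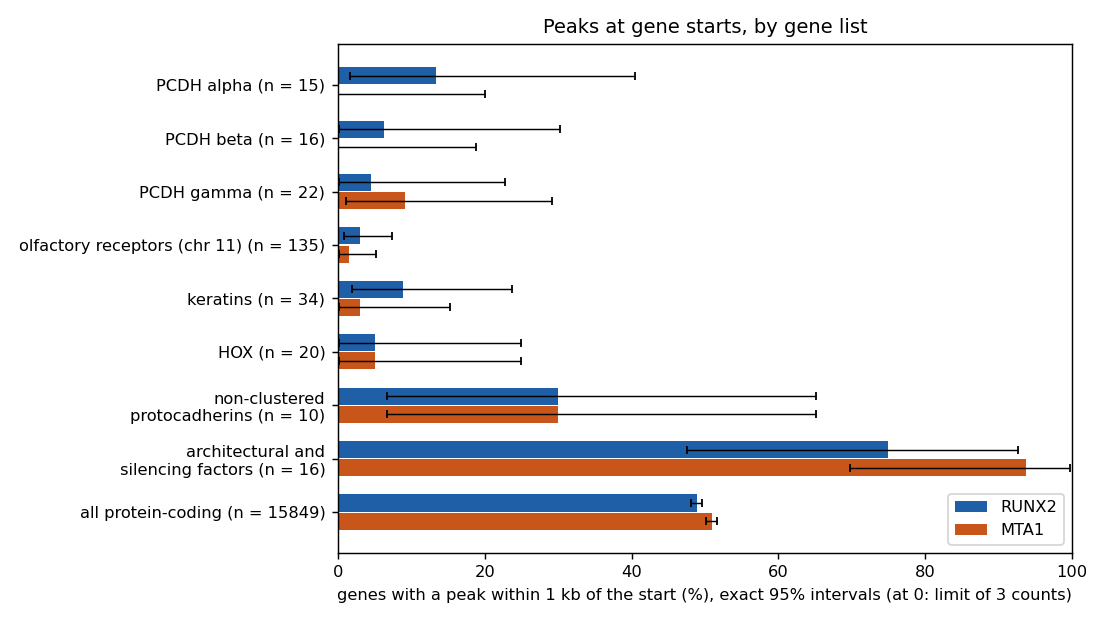
Share of genes with a peak within 1 kb of the start (horizontal axis, percent) for the protocadherin subclusters and comparison lists, with RUNX2 in blue, MTA1 in orange and exact 95% binomial intervals as lines (at a share of 0, up to the limit of 3 counts). The 3 subclusters lie between 0% and 13.3%, while all protein-coding genes lie at 48.9% and 50.9%.

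The 6 start-region peaks all had low scores. The score of a peak is the authors' own, so it is given with its percentile, the share of peaks of the same list with a lower score. In the alpha subcluster the RUNX2 peak at PCDHAC1 lay at chromosome 5, 140926888 to 140926986, from 589 to 687 bases after the start (positions count from 0 at the start), with a score of 5.11 (percentile 27.2). That at PCDHAC2 lay at 140967311 to 140967409, from 835 to 933 bases after the start, with a score of 3.67 (percentile 6.85). Coordinates are those of the files and fit the human assembly GRCh38. Both are C-type genes, which neurons are known to express more constitutively than the numbered alpha genes, and both peaks lay downstream of the start rather than on it.

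In the beta and gamma subclusters the peaks covered the start itself. At PCDHB3 a RUNX2 peak at 141100411 to 141100509 reached from -62 to 36 around the start, with a score of 5.22 (percentile 29.3). A RUNX2 peak at PCDHGB1, 141350036 to 141350134, reached from -63 to 35, with a score of 3.3 (percentile 3.1). For MTA1, the peak at PCDHGB7, 141417612 to 141417727, reached from -65 to 50, with a score of 4.84 (percentile 14.9). At PCDHGC3, the first of the C-type gamma genes, the MTA1 peak at 141475827 to 141476033 reached from -139 to 67, with a score of 4.7 (percentile 13.5). All 4 RUNX2 peaks had the narrowest width of their list, 99 bp, as did the MTA1 peak at PCDHGB7, at 116 bp. The peak at PCDHGC3 was 207 bp wide. None of the 6 reached the median score of its list, which was 6.7 for RUNX2 and 7.58 for MTA1.

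The promoters of the 4 genes whose start was covered are given 5′ to 3′ on the plus strand (RefSeq, GRCh38.p14), with the bases inside the peak in capitals. They lie at chr5:141100223-141100522 (PCDHB3), chr5:141349849-141350148 (PCDHGB1), chr5:141417427-141417726 (PCDHGB7) and chr5:141475716-141476015 (PCDHGC3).

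PCDHB3: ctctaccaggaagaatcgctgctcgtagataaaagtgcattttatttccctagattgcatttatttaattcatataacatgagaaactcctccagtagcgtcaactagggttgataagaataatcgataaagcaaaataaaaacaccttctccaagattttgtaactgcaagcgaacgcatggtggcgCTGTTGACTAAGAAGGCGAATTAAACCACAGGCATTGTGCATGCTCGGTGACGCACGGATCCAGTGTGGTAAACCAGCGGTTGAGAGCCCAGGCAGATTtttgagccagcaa
PCDHGB1: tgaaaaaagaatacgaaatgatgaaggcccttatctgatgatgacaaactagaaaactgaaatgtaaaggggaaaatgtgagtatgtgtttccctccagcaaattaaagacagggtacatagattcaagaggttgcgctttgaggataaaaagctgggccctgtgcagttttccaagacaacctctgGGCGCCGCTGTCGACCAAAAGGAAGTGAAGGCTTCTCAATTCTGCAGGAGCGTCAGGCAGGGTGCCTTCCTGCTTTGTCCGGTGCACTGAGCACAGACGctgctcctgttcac
PCDHGB7: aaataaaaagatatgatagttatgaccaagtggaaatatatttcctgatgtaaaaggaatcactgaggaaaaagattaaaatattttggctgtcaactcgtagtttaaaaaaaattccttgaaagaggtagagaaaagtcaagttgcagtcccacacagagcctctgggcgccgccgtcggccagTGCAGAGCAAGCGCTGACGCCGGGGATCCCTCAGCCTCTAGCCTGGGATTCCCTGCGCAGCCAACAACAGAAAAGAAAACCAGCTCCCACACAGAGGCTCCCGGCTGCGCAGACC
PCDHGC3: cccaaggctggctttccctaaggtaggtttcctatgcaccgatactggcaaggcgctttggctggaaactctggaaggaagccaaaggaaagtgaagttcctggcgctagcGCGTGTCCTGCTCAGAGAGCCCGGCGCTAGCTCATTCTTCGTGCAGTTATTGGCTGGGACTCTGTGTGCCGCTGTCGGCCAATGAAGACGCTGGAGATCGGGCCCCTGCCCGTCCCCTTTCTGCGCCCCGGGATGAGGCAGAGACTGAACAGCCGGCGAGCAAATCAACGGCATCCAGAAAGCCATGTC

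The covered stretches held 99 promoter bases at PCDHB3, 99 at PCDHGB1, 115 at PCDHGB7 and 189 at PCDHGC3. They included 5, 6, 6 and 14 CpG dinucleotides, in the same order. CGCT on the strand of the gene occurred 0, 1, 1 and 3 times inside the peak. At PCDHGB7 the stretch with CGCC that resembles the PCDHGB6 window lay directly before the peak. The window shown above for PCDHB3 had its CGCT from -64 on, across the edge of its peak at -62. The RUNX letters TGTGGT or TGCGGT, on either strand, were found at -38 and 2 in the PCDHB3 promoter, both inside its RUNX2 peak. They were not found in the windows of PCDHGB1, PCDHGB7 or PCDHGC3. Among all members 14 of 47 promoters (29.8%) held these letters, against 18.9% of all promoters. In the alpha subcluster they were present in 6 of 13, namely PCDHAC1 and PCDHAC2, and PCDHA1, PCDHA4, PCDHA7 and PCDHA11, whose starts had no RUNX2 peak. In PCDHAC1 and PCDHAC2 they lay at -69 and -165, outside the RUNX2 peaks, which lay after the start. The bases under those peaks were not searched. At PCDHA1 (-30), PCDHA4 (-65), PCDHA7 (-73) and PCDHAC1 (-69) a match lay inside the window around CGCT compared above. In PCDHA1, PCDHA4 and PCDHA7 it held the same place in similar windows, so these genes are not independent. The alpha count and the share of all members therefore count a shared sequence more than once. A CTCF core, read on either strand as AG, then A or G, then T or G, then GGC, was found in 5 of 47 member promoters, or 10.6%, and in 35.2% of all. This pattern is not that of the element. The beta windows shown above read TGGTGGC, which it does not match. The lower share is therefore no measure of CTCF sites in the members.

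Member promoters were also poor in CpG. The median count was 7.0 per 300 bases (range 2 to 27) against 22.0 over all protein-coding promoters, and the median GC content was 39.7% against 62.7%. The 4 C-type promoters matched had a median of 20.5 CpG and a GC content of 59.0% to 66.0%. The 6 members with a start-region peak had a median of 13.5 CpG, and the 41 without one had 7.0. CpG content moved with the presence of peaks in all genes. Of other genes with 5 to 9 CpG, 21.6% had a RUNX2 and 21.0% an MTA1 peak at the start, while 66.1% and 69.1% of those with 20 or more did. Of the 27 members with 5 to 9 CpG, 1 had a RUNX2 peak, or 3.7% (0.0937% to 19.0%), and 0 had an MTA1 peak, which allows up to 11.1%. These limits, too, take similar neighbouring genes as independent. Among the 9 members with 10 to 14 CpG, RUNX2 was present at 1 and MTA1 at 1, against 37.5% and 40.7% of other genes, which lay within the wide intervals of the members. The 3 members with 15 to 19 CpG had RUNX2 at 1 and MTA1 at 1, against 54.9% and 60.8% of other genes. Of the 2 members with 20 or more, 1 had a RUNX2 and 0 an MTA1 peak. Of the 6 with 0 to 4, 0 had a peak of either library, against 10.4% and 8.52%. These last 3 classes hold too few members to show a difference. The part of CpG content in the low count of peaks was not tested further. These classes were chosen after the data were seen.

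**Figure D2:**
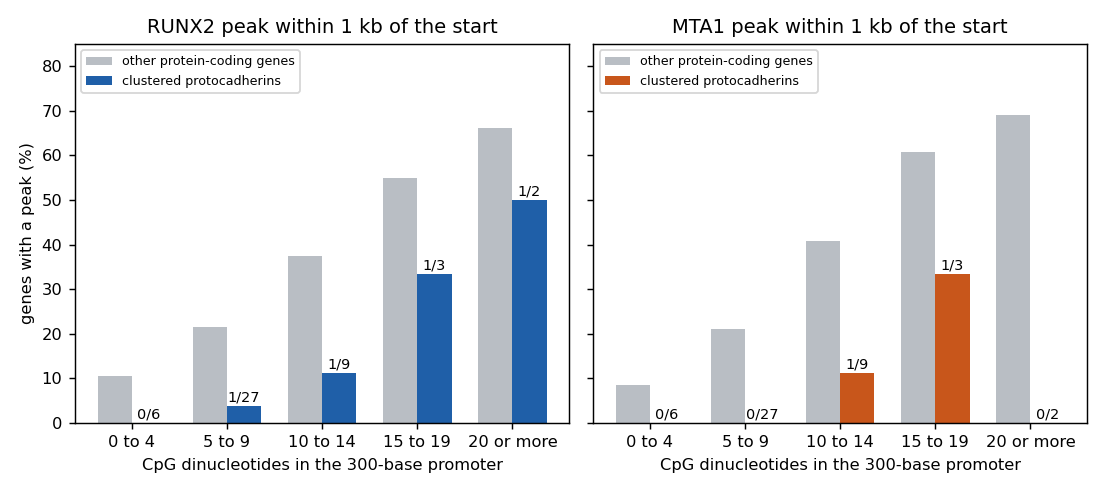
Share of genes with a peak within 1 kb of the start (vertical axis, percent) by the number of CpG dinucleotides in the promoter, for other protein-coding genes in grey and the clustered protocadherins in colour, with members counted above the bars. In the class of 5 to 9 CpG, which holds 27 of the 47 members, 1 member had a RUNX2 peak and 0 had an MTA1 peak.

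More members had a RUNX2 peak when the start region was widened. Within 0.5 kb of the start 2 members had a RUNX2 peak, within 2 kb 6, within 3 kb 10 and within 5 kb 13. The share of all genes moved from 44.9% to 60.3% over the same range. For MTA1 the count was 2 at 0.5 kb, 2 at 3 kb and 4 at 5 kb, with 60.2% of all genes at 5 kb. One peak can count for more than 1 member: the 13 members at 5 kb shared 9 RUNX2 peaks and the 4 members 2 MTA1 peaks. At 3 kb, the exact intervals of the RUNX2 and MTA1 shares were 9.44% to 32.0% and 0.46% to 13.0%, and a difference between the libraries was not tested. Several RUNX2 peaks lay about 2 kb inside a gene. Their centres lay 2.05 kb after the start of PCDHA12, 1.77 kb after that of PCDHGA2, 2.07 kb after that of PCDHGA7 and 2.46 kb after that of PCDHGA11. Variable exons are long, but whether these peaks lie in an exon was not analysed here.

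Along the 3 subclusters together, RUNX2 peaks were about as dense as over all chromosomes but ranked low. MTA1 peaks were fewer per Mb, but within counting error. The 3 subclusters, 606.7 kb in all, held 11 RUNX2 peaks, or 18.1 per Mb (exact Poisson interval 9.05 to 32.4), against 20.0 per Mb over all chromosomes and 19.8 on chromosome 5. They held 4 MTA1 peaks, or 6.59 per Mb (1.8 to 16.9), against 13.8 and 13.6, values that lie inside the interval. By subcluster there were 3 RUNX2 and 0 MTA1 peaks in alpha, 1 and 0 in beta, and 7 and 4 in gamma. The empty MTA1 counts allow up to 13.3 per Mb in alpha and 15.2 per Mb in beta. Per Mb this gave 13.3, 5.05 and 38.4 for RUNX2, with overlapping intervals (2.73 to 38.8, 0.128 to 28.1 and 15.4 to 79.0). For MTA1, gamma held 21.9 per Mb (5.97 to 56.1), above the 13.8 over all chromosomes, which lay inside that interval. The low MTA1 value of the 3 subclusters together thus came from alpha and beta. The constant region of the alpha genes, 33.4 kb long, held 0 peaks of either library, though its length allows up to 89.8 per Mb.

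The chromosome next to the clusters was different. In the 500 kb before alpha there were 31 RUNX2 and 22 MTA1 peaks, and in the 500 kb after gamma 35 and 22. Together this was 66.0 RUNX2 peaks per Mb (51.0 to 84.0) and 44.0 MTA1 peaks per Mb (32.0 to 59.1), and neither interval overlapped that of the subclusters. Of 28 protein-coding genes with a known start in these flanks, 22 had a RUNX2 peak there (78.6%, interval 59.0% to 91.7%) and 20 an MTA1 peak (71.4%, 51.3% to 86.8%). The members lay between these genes, with 4 and 2 of 53. Some flank genes were counted on the same peak, among them NDUFA2 and IK, HARS1 and HARS2, and HDAC3 and RELL2. The intervals of the flank genes take such genes as separate and are therefore too narrow.

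**Figure D3:**
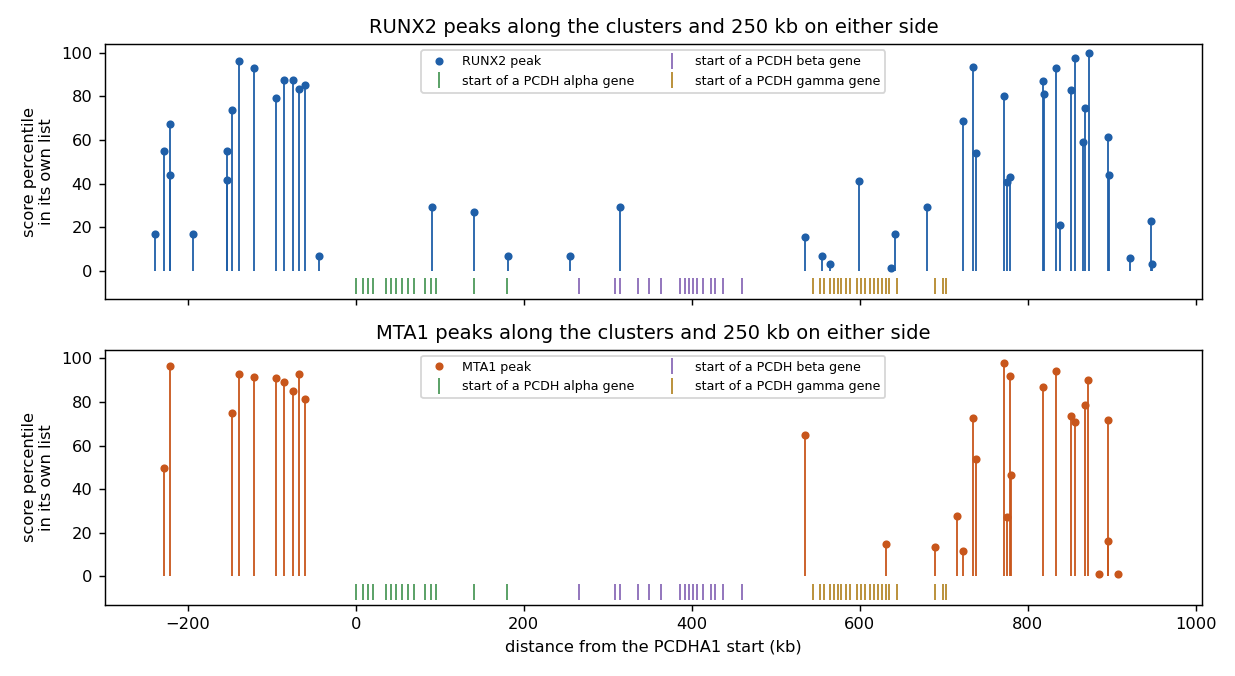
Peaks of RUNX2 (upper) and MTA1 (lower) by distance from the PCDHA1 start in kb (horizontal axis) and score percentile within the own list (vertical axis), with member starts as ticks coloured by subcluster. Peaks are dense on both sides and span nearly the whole range of percentiles, those inside the 3 subclusters lie at percentile 41.0 or below except for 1 RUNX2 peak at 68.9, and no MTA1 peak lies over the alpha and beta starts.

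The longest stretch without an MTA1 peak that touched the clusters was 594.3 kb, from 140726279 to 141320622. It held the starts of 31 members, which are all alpha and beta genes. Of 42659 gaps between neighbouring MTA1 peaks, 663 (1.55%) were longer, and the median gap was 21.1 kb. For RUNX2 the longest stretch was 219.8 kb, from 141100509 to 141320282, and held 13 starts, those of the beta genes after PCDHB3. A second RUNX2 stretch of 134.7 kb held the first 12 alpha starts, from PCDHA1 to PCDHA12. Of 61676 RUNX2 gaps, 3.66% were longer than the first and 7.31% longer than the second, with a median gap of 16.6 kb. Centromeres and unsequenced stretches are among the gaps counted. These shares count gaps and not their length. A long gap covers more of the genome than a short one, so the shares do not give how often a locus lies in such a stretch.

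Distance to the nearest peak therefore differed by gene. The nearest RUNX2 peak centre lay 64.5 kb from the start of PCDHA4, the farthest alpha gene, and 108.3 kb from that of PCDHB12, the farthest beta gene. Among gamma genes no start was farther than 20.2 kb from a RUNX2 peak, the value at PCDHGC5. For MTA1 the distance reached 269.4 kb at PCDHB1 and, within gamma, 47.4 kb at PCDHGB3.

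Scores of the peaks in the clusters ranked low in both lists. The 11 RUNX2 peaks had a median percentile of 27.2 (range 1.51 to 68.9), and 1 of them reached the median score of the list. The 4 MTA1 peaks had a median percentile of 14.2 (11.8 to 27.7), and 0 reached it. In the flanks the medians were 59.7 for 66 RUNX2 and 72.8 for 44 MTA1 peaks, of which 40 and 33 reached the median score. Width went the same way. The narrowest width was that of 8 of 11 RUNX2 peaks in the subclusters (72.7%), against 22.7% in the flanks and 31.7% over the list. Equal scores were frequent: PCDHB3, PCDHA12 and the peak before PCDHGC3 shared the score 5.22 with 6168 RUNX2 peaks in all.

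**Figure D4:**
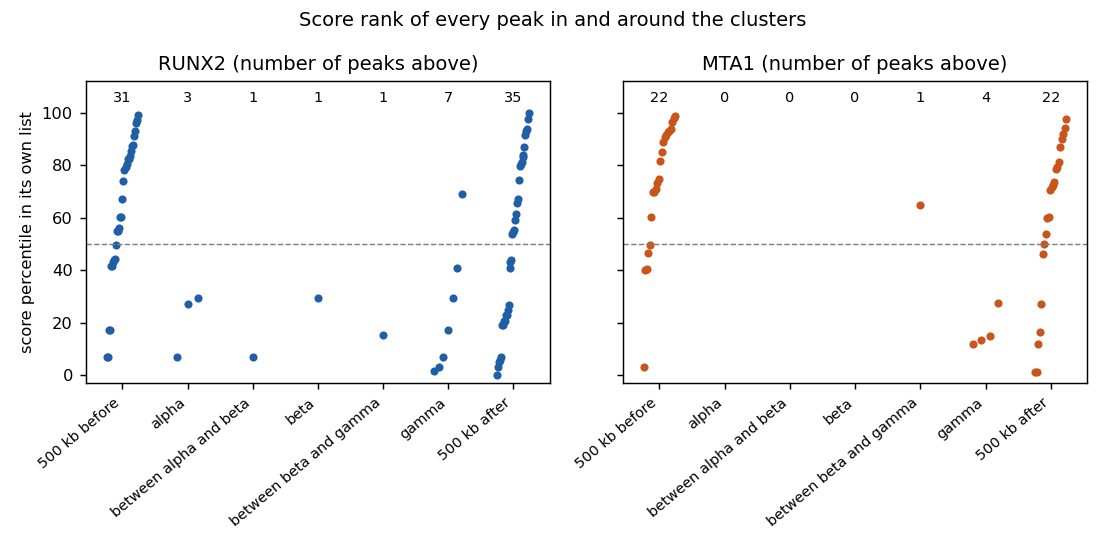
Score percentile within the own list (vertical axis) of every RUNX2 (left) and MTA1 (right) peak by region (horizontal axis), with the number of peaks above each column and the list median as a dashed line. Within the 3 subclusters only 1 RUNX2 peak, in gamma, lies above the dashed line, and the MTA1 peak above it between beta and gamma is that of TAF7.

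Only 1 site in the clusters carried peaks of both libraries. It lay near the shared end of the gamma genes, 3.67 kb before it and 20.2 kb after the start of PCDHGC5, inside the span of all 22 gamma genes. The RUNX2 peak, 141509194 to 141509419, had the highest score of the clusters in its list, 10.1 (percentile 68.9). The MTA1 peak, 141509146 to 141509358, had a score of 4.58 (percentile 11.8), and the peaks shared 165 bp. Thus 1 of 11 RUNX2 peaks was shared, or 9.09% (0.23% to 41.3%), against 45.4% over the list. Of MTA1 peaks 1 of 4 was shared, or 25.0% (0.631% to 80.6%), against 65.5%. In the flanks 38 of 66 RUNX2 (57.6%) and 37 of 44 MTA1 peaks (84.1%) were shared. The RUNX2 interval of the clusters ended below both of these RUNX2 shares, and the MTA1 interval, on 4 peaks, did not exclude the share over the list. Most cluster peaks ranked low, while these shares are over peaks of all ranks and widths. Shares among peaks of like rank or width were not computed. Without RUNX2 peaks of the narrowest width, 1 of 3 was shared (33.3%, 0.84% to 90.6%), an interval that excludes neither RUNX2 share.

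The other gamma peaks were spread over the subcluster. The second RUNX2 peak by score, 141384725 to 141384892 in PCDHGA7, reached 5.54 (percentile 41.0). Next came the peaks of equal score 5.22 in PCDHA12 (140877311 to 140877409), at PCDHB3 and before PCDHGC3 (141466052 to 141466150). For MTA1 the highest score of the subclusters was 5.76 (percentile 27.7), at 141501617 to 141501732, 12.6 kb after the start of PCDHGC5 and past every gamma start. The next were those at PCDHGB7 and PCDHGC3. A RUNX2 peak of score 4.52 at 141427804 to 141427902 lay in the pseudogene PCDHGB8P.

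Genes that are no protocadherins but lie among the clusters or beside them did carry peaks. TAF7, a subunit of the general transcription factor TFIID, lies between beta and gamma. It had an MTA1 peak over its start, at 141320622 to 141320984, with a score of 10.0 (percentile 64.8), and a RUNX2 peak inside the gene at 141320282 to 141320380, with a score of 4.42 (percentile 15.3). The peaks lay 242 bp apart and did not overlap. The start side of SLC25A2, a mitochondrial ornithine carrier next to it, was not known here. The nearest protein-coding genes outside were ZMAT2 before alpha and DIAPH1 after gamma. ZMAT2 had a RUNX2 peak of score 20.6 (percentile 87.6) and an MTA1 peak of 21.0 (percentile 88.9). DIAPH1, a formin that nucleates actin filaments, had 28.1 (percentile 93.0) and 28.0 (percentile 94.3).

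Genes of the factors that are known to shape or silence the clusters had peaks more often than the members. Of the 19 listed, the start side of 16 was known, and 12 had a RUNX2 and 15 an MTA1 peak, or 75.0% (47.6% to 92.7%) and 93.8% (69.8% to 99.8%). These stand beside the 48.9% and 50.9% of all genes. The 4 genes named are those whose higher score, in whichever list, was largest, and they are not the 4 highest of each list. ZNF143, a zinc finger factor found at chromatin loops, had scores of 38.2 for RUNX2 and 79.3 for MTA1, and CTCF had 32.7 and 42.8. DNMT1, the maintenance DNA methyltransferase, lay at percentile 71.7 for RUNX2 (score 10.8) and 99.1 for MTA1 (score 47.8). The cohesin subunit STAG2 lay at 91.2 (score 25.0) and 43.4 (score 6.83). Binding at these genes says nothing of their product at the clusters.

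Non-clustered protocadherins, which are single genes with promoters of their own, had a RUNX2 peak at 3 and an MTA1 peak at 3 of 10 genes with a known start, or 30.0% (6.67% to 65.2%). PCDH9 had scores of 19.7 for RUNX2 and 17.9 for MTA1. PCDH1, on the same chromosome as the clusters, had 17.2 and 9.13. PCDH12 had an MTA1 peak of 7.63, and PCDH8 a RUNX2 peak of 3.58. The intervals overlapped those of the members, so a difference was not shown. Of 9 classical cadherins, 2 had a known start side, and 0 of these had a peak, which is too few to describe the list.

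Other tandem families were set beside the members. The start side was known for 135 of 171 olfactory receptor genes of chromosome 11, for 34 of 55 keratin genes and for 20 of 39 HOX genes, and the other genes of each family were left out. Of the 135 olfactory receptor genes, 4 had a RUNX2 peak (2.96%, interval 0.813% to 7.41%) and 2 an MTA1 peak (1.48%, 0.18% to 5.25%). These were 5 genes in all, OR56B1 (MTA1 5.92, RUNX2 3.58), OR52W1 and OR4D6 (RUNX2 5.22 each), OR4C3 (RUNX2 4.84) and OR51T1 (MTA1 3.75), the last named after its value was seen. Of the 34 keratin genes, 3 had a RUNX2 peak (8.82%, 1.86% to 23.7%) and 1 an MTA1 peak (2.94%). The keratin KRT8, of simple epithelia, had RUNX2 and MTA1 scores of 30.0 and 10.5, while KRT12 and KRT9 had RUNX2 scores of 5.22 and 3.3. Of the 20 HOX genes, 1 had a RUNX2 peak, HOXB1 (score 3.22), and 1 an MTA1 peak, HOXD1 (score 8.25), 5.0% each (0.127% to 24.9%). The intervals of all 3 families overlapped those of the protocadherins, so a difference from these families was not shown.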

How the data were processed

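RUNX2 and MTA1 were profiled in untreated MDA-MB-231 cells with 1 CUT&Tag library each. The labels and the study's methods name different antibody suppliers, and the labels also describe ligation of adaptors to precipitated DNA, so the preparation is uncertain. The authors called peaks in each library and deposited 1 list per library, with position and a score per peak. The scale of the deposited score was not stated, so only ranks were compared between lists. The submitters' processing notes name CASAVA 1.4, Bowtie 0.12.8, MACS and MACS2; the threshold and any control library are not given in the sources used here. Read depth is unknown.

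The notes name the build hg19, but the positions fit GRCh38: a RefSeq GRCh38.p14 start of a protein-coding gene was within 1 kb for 13.5% of the 61700 RUNX2 peaks and 19.4% of the 42683 MTA1 peaks, against 1.83% and 1.98% after a move of 100 kb. On chromosome 5 these were 12.1% and 17.0%, against 1.89% and 1.9%. Only the numbered chromosomes, X and Y were kept.

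The strand of a gene came from the RefSeq promoter table. The 6 members not matched there were given the plus strand that the other 47 share. The start was the outermost end of the gene. The promoter listed for PCDHGB2 starts 142 bases after it. A peak was counted at a start when it overlapped the 1 kb on either side by at least 1 bp. Peaks per Mb used the last annotated gene end as the length of a chromosome. Shares carry exact Clopper-Pearson intervals, and counts per Mb exact Poisson intervals. Both take genes or peaks as independent, which neighbouring members with similar promoters may not be. A count of 0 was given with the share, or the number per Mb, that 3 counts would make. Motifs were searched on both strands. No p-value was computed. The overlap steps were tested on simulated data.

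Named genes were every member with a start-region peak, those with the highest-scoring peaks of each subcluster, genes inside or next to the clusters, and up to 4 genes with a peak from each comparison list (19 factors, 12 non-clustered protocadherins, 9 classical cadherins, and olfactory receptor, keratin and HOX genes by symbol). The members and lists were chosen with earlier results of these data known. Intervals were computed with scipy 1.17.1, tables with pandas 2.3.3 and numpy 2.4.6, and plots with matplotlib 3.10.9, under Python 3.11.15.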

Additional observations from a re-analysis of the deposited data

How the results depend on the processing

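No paired analysis was possible because each antibody has 1 library. In each alternative the members' count with a start-region peak stayed under the share of all genes, and 0 of 53 members had both peaks in all 7 alternatives run for that count. With 500 bp either side 2 members had a RUNX2 peak (44.9% of all genes), and with 3 kb 10 did (55.6%), as a narrower or wider window must give. Keeping peaks that reached the median score, 0 members had a RUNX2 and 0 an MTA1 peak, against 37.1% and 39.3% of all genes. The clusters then held 1 RUNX2 peak, 0% of them shared, and 0 MTA1 peaks, which leaves no MTA1 share to give. Keeping the top 10000 peaks by score, 0 and 0 members had a peak (14.3% and 25.4% of all genes), and the clusters held 0 RUNX2 and 0 MTA1 peaks. Without the peaks of the narrowest width, 0 members had a RUNX2 and 1 had an MTA1 peak (44.6% and 47.4% of all genes), and 3 and 2 peaks remained in the clusters. Fewer peaks lower these counts by construction. The other 27 of 42 values, among them those with centres inside the start region, wider bounds, merged peaks, stricter overlap and, chosen after seeing the data, any listed start of a gene, kept within 1.5-fold of the reported count or within its interval. The counts of members with a peak therefore rest on weak peaks, and with depth unknown an empty start cannot be told apart from a weak signal.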

Other observations

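The peak nearest to the clusters on the alpha side differed between the libraries. The last MTA1 peak, at chromosome 5, 140725914 to 140726279, overlapped the vault RNA gene VTRNA1-3, a small RNA transcribed by RNA polymerase III, and lay 59.9 kb before PCDHA1, with a score of 15.8 (percentile 81.4). It overlapped a RUNX2 peak. One further RUNX2 peak, at 140742504 to 140742602, lay nearer, at 43.5 kb, with a score of 3.67 (percentile 6.85). On the gamma side the first peaks of both libraries overlapped each other inside DIAPH1, at 141521182 to 141521541 for RUNX2 (score 29.2, percentile 93.6) and 141521148 to 141521495 for MTA1 (score 12.2, percentile 72.5). They lay 8.21 kb and 8.17 kb after the end of the gamma genes.

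The neighbouring genes HARS1, HARS2 and HDAC3 were read after the values were seen. HARS1 and HARS2, divergent genes of histidyl-tRNA synthetases, share a promoter with a RUNX2 peak of score 14.1 and an MTA1 peak of score 23.0. HDAC3, a histone deacetylase, had scores of 16.5 and 12.4.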
